A study of Homo sapiens with 6 samples.

Results

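Histones are the proteins around which DNA is wound, and their genes were followed here in HepG2.2.15 cells. This line was made from the human hepatoma line HepG2 and carries copies of the hepatitis B virus genome. The histone genes were taken by name as the protein-coding genes of the H1, H2A, H2B, H3 and H4 families together with MACROH2A1 and MACROH2A2, which gave 95 of the 62709 genes in the deposited table. By their names and textbook roles, 68 of them are replication-dependent histone genes and 27 are variants. Polyadenylated RNA was sequenced from cells kept for 3 days with YQSHJD (Yinqi Sanhuang Jiedu Decoction), a herbal preparation of Chinese medicine given as a dilution of its freeze-dried powder, so that it made up 10% of the medium, and from cells kept for the same time with saline. The control is physiological saline by the label of each sample, and PBS by the treatment protocol. Both groups were labelled as wild type and grew in DMEM with serum, penicillin-streptomycin and G418, an antibiotic used to select transfected cells. Each group held 3 libraries, called YQSHJD 1 to 3 and saline 1 to 3. The labels do not say whether these came from separate cultures, so p-values measure the spread between these libraries, which may be technical.

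Replication-dependent histone genes lie in clusters, lack introns and are transcribed in S phase, when new DNA must be packed. Their mRNAs normally end not in a poly(A) tail but in a conserved stem-loop, which the stem-loop binding protein SLBP holds from processing to translation. Variant histones such as H2A.Z, H3.3 and macroH2A come from genes outside the clusters, have polyadenylated mRNAs, and are deposited throughout the cell cycle. Linker histones of the H1 family bind the DNA between nucleosomes.

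With YQSHJD, no tested replication-dependent gene was called lower and no tested variant was called higher, and both counts were also 0 at an unadjusted p under 0.05 with limma and by limma-voom on reads. The linker histone gene H1-2 rose 5.79-fold and H2BC5, H2AC8 and H2AC6 rose as well, while the linker variant H1-10, the macroH2A genes, H2AX and both H2A.Z genes fell. Of these, H2AC8 passed the filter on low values, given below, through the group in which it was higher. The call of H2AC6 was lost in 3 of 15 alternative analyses and that of H2AZ1 in 8. H3-3A and H3-3B, which encode the H3.3 variant, were not called in either direction. Of the 21 histone genes that could be tested, 11 were called at a Benjamini-Hochberg adjusted p under 0.05 with limma on log2(FPKM + 1), which is 52.4%, against 41.4% of all 10966 tested genes. Of the histone genes 4 were called higher and 7 lower, where 23.3% of all tested genes were called higher and 18.0% lower. By class, 36.4% of the 11 tested replication-dependent genes were called, all of them higher. That share lay near the 41.4% of all tested genes called in either direction. Of the 10 tested variants 70% were called, all of them lower. Folds are ratios of mean FPKM, and FPKM, the unit of every level below, counts fragments per kilobase of a gene, with library depth scaled out.

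Most of the family could not be tested in these libraries. A total of 30 genes were listed at 0 in all 6 libraries, 21 of them replication-dependent, and 31 genes had reads in every library. For some genes listed at 0, all 31-base stretches occur in other histone genes as well. How such shared reads were counted is not given, so a 0 there cannot be read as absence. To be tested, a gene had to reach 1 FPKM in 3 or more of the 6 libraries, which 11 replication-dependent genes and 10 variants reached. Of the rest, 36 genes held 1 to 29 reads summed over the 6 libraries and 8 held at least 30. The egg variant H1-8 and 7 replication-dependent genes made up those 8. Just inside the filter stood H2BC17, with 3 libraries at 1 FPKM or more, and H2AC8 with 4, of which 3 were the YQSHJD libraries, so that H2AC8 passed through the group in which it was higher. The genes just outside were H2AC20, H2BC13 and H2BC8, with 2 libraries each.

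**Figure D1:**
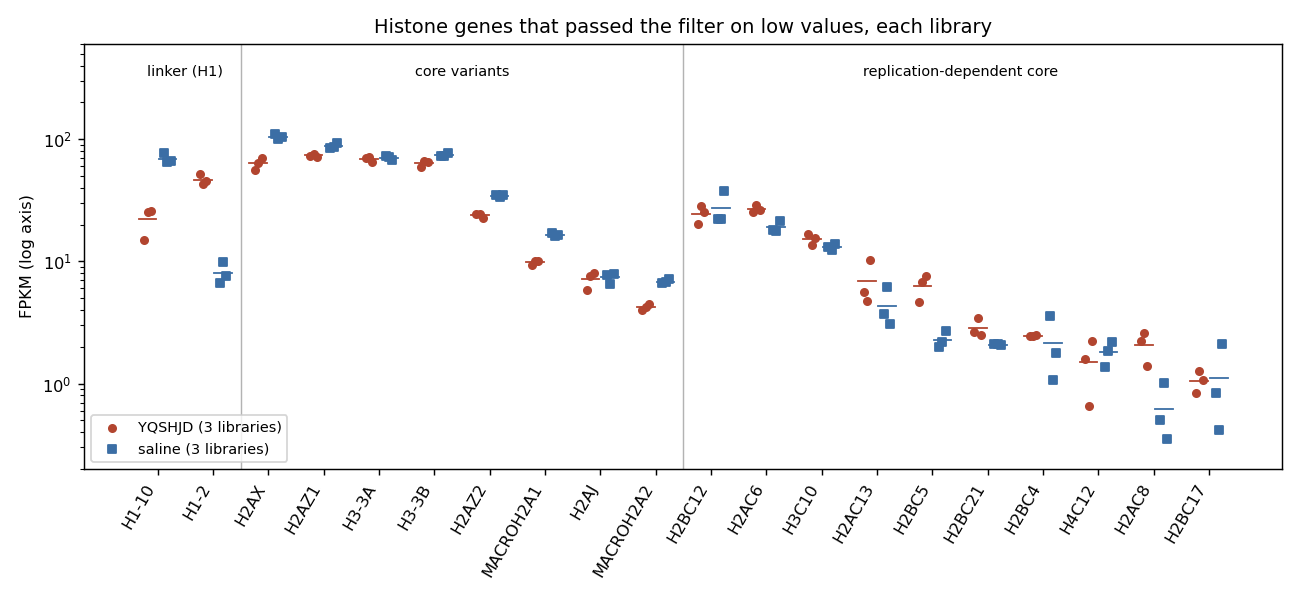
FPKM on a log axis of 20 tested histone genes, with a point for each YQSHJD library (left of each pair) and each saline library (right of each pair) and a bar at the mean of 3 libraries. H1-2 lies higher with YQSHJD while H1-10 lies lower, and most replication-dependent core genes stay under 30 FPKM.

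The recovered reads in genes numbered 14579088, 13370372 and 15066527 in YQSHJD 1 to 3 and 14829994, 14966790 and 15615649 in saline 1 to 3. The scaling of the deposited FPKM treated the YQSHJD libraries as 0.885 to 0.923 times as deep as those totals and the saline libraries as 1.03 to 1.05 times as deep. On that scale the median log2 difference of all tested genes was 0.04. With every library brought to the same sum, as in TPM, the median was -0.26, and the rescaling turned the split of all calls to 885 higher and 4375 lower genes, against 2559 higher and 1977 lower on the deposited scale. Without YQSHJD 1, 5 histone genes were called higher and 7 lower. YQSHJD 1 had the lowest mean correlation with its own group, 0.976, against 0.981 and 0.984 for the other YQSHJD libraries and 0.989 to 0.990 for the saline libraries. The libraries carried hepatoma markers, with ALB, the gene of albumin, at 2605, 1966 and 1799 FPKM with YQSHJD and 830.9, 978.4 and 1011 FPKM with saline. Of 8 such markers 5 were called higher, among them ALB, AFP, FGB and APOA1, where 23.3% of all tested genes were called higher. Under TPM rescaling 3 were higher and 2 lower. TTR went the other way, at 12.2, 18.5 and 18.1 FPKM with YQSHJD and 21.3, 20.3 and 21.5 FPKM with saline. The groups did not overlap for TTR, but it was not called. SERPINA1 was not called and overlapped, at 657.7, 618.4 and 556.3 FPKM with YQSHJD and 665.9, 713.0 and 608.8 FPKM with saline. Of 8 markers of other cells, PTPRC and COL3A1 were listed at 0 and only 3 could be tested. Of these PECAM1 and KRT19 were called higher, and 1 was higher and 1 lower under TPM rescaling. Without saline 1, none of the 3 tested markers was called. PECAM1 measured 1.54, 1.08 and 1.18 FPKM with YQSHJD and 0.492, 0.739 and 0.544 FPKM with saline. It thus passed the filter only through the group in which it was higher. ACTA2, also tested, was not called but lay lower without overlap. It measured 13.7, 13.7 and 13.0 FPKM with YQSHJD and 16.5, 19.0 and 14.6 FPKM with saline. PDGFRB, under the filter, was at 0.0978, 0.247 and 0.0806 FPKM with YQSHJD and 0.552, 0.501 and 0.445 FPKM with saline. The summed level of these 8 markers was 45.4 to 50.2 FPKM with YQSHJD and 44.2 to 46.0 FPKM with saline. That sum joins markers that went opposite ways. The part of cell identity in the histone differences was not tested, and in bulk RNA a change in the number of cells of a type and a change in RNA per cell cannot be told apart.

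The linker histone genes H1-2 and H1-10 moved in opposite directions. H1-2 (ENSG00000187837, chromosome 6, 26055740 to 26056470), 1 of 5 replication-dependent H1 genes, measured 51.4, 43.0 and 45.1 FPKM in the YQSHJD libraries and 6.64, 9.87 and 7.60 FPKM in the saline libraries. These values rest on 485, 375 and 458 reads with YQSHJD and 74, 111 and 91 reads with saline. The groups lay far apart, and no YQSHJD library came near the highest saline library. On the log2 scale the gene rose by 2.41 with a standard error of 0.14 (adjusted p = 1.1e-05), the 23rd largest increase among the 10966 tested genes. The difference stayed between 2.07 and 2.59 under all 15 alternatives.

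The other replication-dependent H1 genes gave almost nothing to set beside it. H1-1 and H1-3 were listed at 0 in all 6 libraries, and H1-4 and H1-5 each held at most 2 reads in any library. The transcript of H1-2 is annotated without a 3′ untranslated region, so its end could not be read. Of its 31-base stretches 0.817% occur in other histone genes as well.

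H1-10 (chromosome 3, 129314771 to 129316286), a linker variant with an intronless gene outside the clusters, measured 15.1, 25.3 and 25.7 FPKM with YQSHJD and 76.8, 65.1 and 66.1 FPKM with saline. YQSHJD 1 was the lowest library and the groups did not overlap. H1-10 fell by 1.65 on the log2 scale with a standard error of 0.19 (adjusted p = 0.00044). Under the 15 alternatives the difference lay between -2.00 and -1.20 and kept its call. It was -1.20 after GC correction and -1.41 without YQSHJD 1. H1-10 overlaps H1-10-AS1 on the opposite strand, which had 3 to 10 reads per library. The egg variant H1-8 stayed under the filter, with 0, 4 and 2 reads with YQSHJD and 8, 9 and 9 reads with saline.

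H1-2 was at 43.0 FPKM or more in every YQSHJD library, where H1-10 was at 25.7 FPKM or less. In the saline libraries the order was the other way, with H1-2 at 9.87 FPKM or less and H1-10 at 65.1 FPKM or more.

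**Figure D2:**
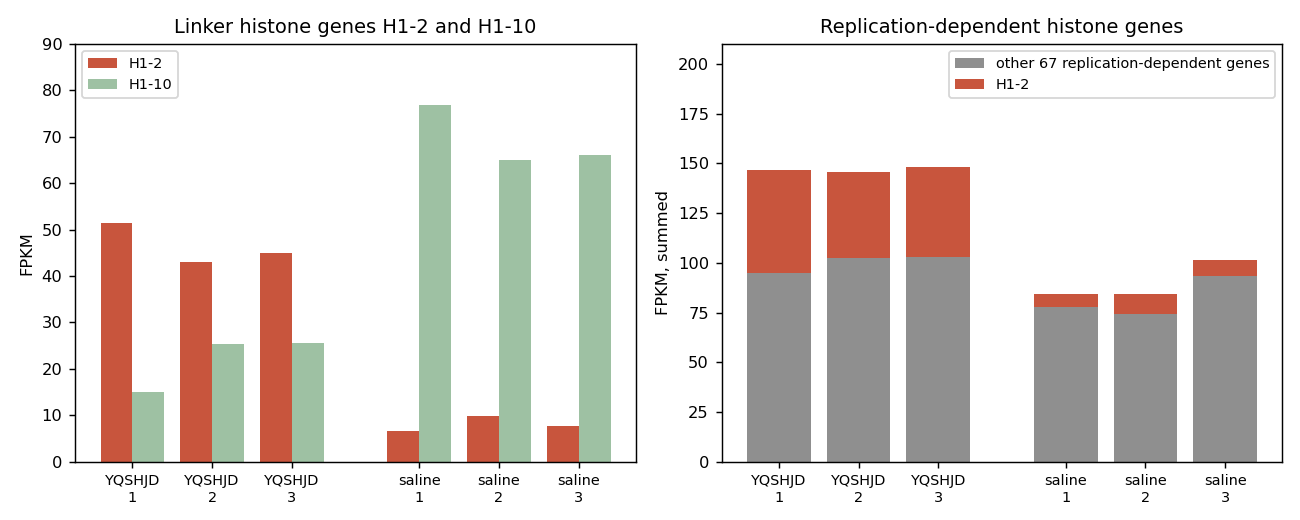
FPKM of H1-2 and H1-10 in each library (left) and summed FPKM of the 68 replication-dependent histone genes split into H1-2 and the other 67 (right), YQSHJD libraries before saline libraries. H1-2 is the taller bar in the 3 YQSHJD libraries and H1-10 in the 3 saline libraries, and most of the difference in the replication-dependent sum is the H1-2 segment.

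Of the 6 tested H2A variants 5 fell. H2AX (chromosome 11, 119093874 to 119095465), the variant that is phosphorylated around DNA breaks, measured 55.8, 64.1 and 69.7 FPKM with YQSHJD and 110.1, 100.2 and 103.5 FPKM with saline. The groups did not overlap, and the difference was -0.72 with a standard error of 0.10 (adjusted p = 0.00086). It was -0.33 after a GC correction, which removes from each library the trend of level on the base composition of transcripts, and -1.08 under TPM rescaling, and it passed the test in both.

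MACROH2A1 (chromosome 5, 135334381 to 135399914), which carries a large extra domain and is enriched on silent chromatin, measured 9.40, 10.1 and 10.0 FPKM with YQSHJD and 17.2, 16.2 and 16.3 FPKM with saline, a fall of 1.68-fold. Its difference was -0.70 with a standard error of 0.08 (adjusted p = 0.00043). MACROH2A2, its close relative, measured 4.02, 4.24 and 4.45 FPKM with YQSHJD and 6.67, 6.72 and 7.11 FPKM with saline, and fell by 0.58 (adjusted p = 0.0013), or by 0.89 under TPM rescaling. For both genes every YQSHJD library lay below every saline library. MACROH2A2 overlaps AIFM2 on the opposite strand, which had 5982 to 8484 reads per library, and whether the counting used strand is not given, so its reads cannot be told apart from those of AIFM2. MACROH2A1 overlaps PITX1-AS1 in the same way, with 91 to 179 reads.

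The H2A.Z genes encode the variant that sits around transcription start sites. H2AZ2 measured 24.3, 24.6 and 22.5 FPKM with YQSHJD and 35.0, 33.7 and 34.7 FPKM with saline, and fell by 0.52 on the log2 scale (adjusted p = 0.0017), or by 0.87 under TPM rescaling. H2AZ1 measured 72.4, 76.2 and 71.9 FPKM with YQSHJD and 83.8, 86.3 and 92.3 FPKM with saline. Neither gene overlapped between the groups, but the change of H2AZ1 was small, -0.25 with a standard error of 0.08 (adjusted p = 0.038). Its call was lost in 8 of 15 alternatives, with an adjusted p of up to 0.133, and its difference was -0.61 under TPM rescaling. H2AJ, a variant outside the clusters that differs from canonical H2A mainly at its tail, overlapped between the groups at 5.86, 7.60 and 8.05 FPKM with YQSHJD and 7.78, 6.54 and 7.91 FPKM with saline. Its difference was -0.05, with a 95% interval from -0.34 to 0.25. Over the 12 H2A variants the summed level averaged 181.8 ± 8.47 FPKM with YQSHJD and 257.6 ± 6.64 FPKM with saline (SD, n = 3 each).

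H3.3 is the H3 variant placed at active genes by the HIRA chaperone and at telomeres by DAXX and ATRX, and H3-3A and H3-3B encode the same protein. H3-3A measured 69.5, 71.5 and 65.1 FPKM with YQSHJD and 72.6, 71.8 and 67.6 FPKM with saline, and the groups overlapped. Its difference was -0.04 with a 95% interval from -0.23 to 0.15. H3-3B measured 59.5, 65.9 and 64.5 FPKM with YQSHJD and 72.7, 72.7 and 77.1 FPKM with saline. Every YQSHJD library lay below every saline library, yet the difference of -0.23 did not pass (adjusted p = 0.056, 95% interval from -0.42 to -0.04). Both passed as lower under TPM rescaling, at -0.40 for H3-3A and -0.58 for H3-3B, on a scale where the median of all tested genes was -0.26, and after GC correction, at -0.26 for H3-3A and -0.22 for H3-3B with that median at 0.02. Over the 15 alternatives H3-3B passed in 5 and H3-3A in 2. H3-3B overlaps UNK on the opposite strand, which had 366 to 679 reads per library.

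**Figure D3:**
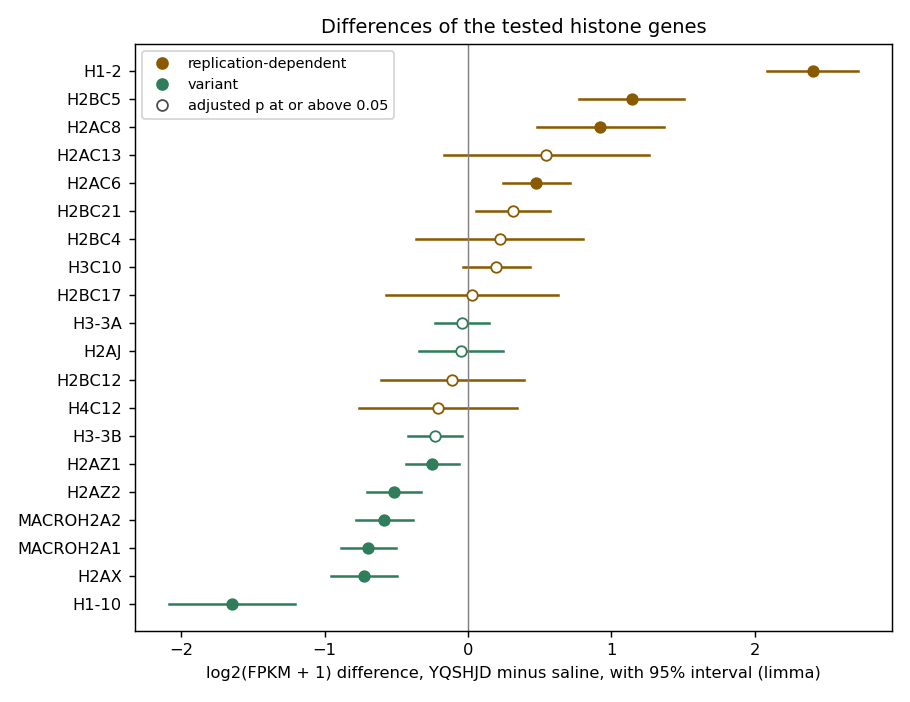
Differences in log2(FPKM + 1), YQSHJD minus saline, of 20 tested histone genes with 95% intervals from limma, brown for replication-dependent genes and green for variants, filled where the adjusted p is under 0.05. Every filled brown point lies right of 0 and every filled green point left of it.

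Poly(A) selection keeps an mRNA by its 3′ end, so the ends of the histone transcripts were read before the replication-dependent core genes are described. A perfect stem of 6 base pairs with a loop of 4 bases, starting with GG, was searched within 100 bases after the stop codon in the GENCODE 29 transcripts of the histone genes, which cover 90 of the 95. It was found in 30 genes, 28 of them replication-dependent, the others being H2AX and the testis H3 gene H3-4. The transcripts of 32 replication-dependent genes are annotated without any 3′ untranslated region, so nothing could be searched there. The sequences below are those of the tested genes with a stem-loop, other than H2AC13. The stem-loop is in capitals and 5 bases of flank on each side are in lower case, as DNA letters of the mRNA strand.
H2AC6 (chr6:26124669-26124684, plus strand): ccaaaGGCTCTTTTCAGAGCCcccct
H2AC8 (chr6:26217417-26217432, plus strand): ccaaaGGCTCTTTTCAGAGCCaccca
H2BC5 (chr6:26158587-26158602, plus strand): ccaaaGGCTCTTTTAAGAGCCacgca
H2BC4 (chr6:26123472-26123487, minus strand): ccaaaGGCTCTTTTAAGAGCCaccca
H2BC21 (chr1:149886188-149886203, minus strand): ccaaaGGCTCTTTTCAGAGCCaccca
H3C10 (chr6:27810516-27810531, plus strand): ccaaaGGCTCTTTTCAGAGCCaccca
H2AX (chr11:119094898-119094913, minus strand): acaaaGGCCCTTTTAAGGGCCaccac

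The coordinates are those of the 16 stem-loop bases on GRCh38. The form in H2AC6, H2AC8, H2BC21 and H3C10 is the commonest, in 15 of the 30 genes, and the form in H2BC5 and H2BC4 occurs in 5. The form in H2AX occurs in none of the other genes. Beside the stem-loop, H2AC6, H2BC5, H2BC4, H2BC21, H3C10 and H2AX each have an annotated transcript that runs on and ends with the polyadenylation signal AATAAA or ATTAAA within its last 40 bases. H2AX is known to make both forms of mRNA. Among the 68 replication-dependent genes 19 have both a stem-loop and such an end, and 5 of these 19 were tested. H2AC8 and H2AC13 were tested with a stem-loop and no such end, and for H1-2, H2BC12, H2BC17 and H4C12 the annotation gives no 3′ untranslated region.

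Among the replication-dependent core histones 3 genes rose. H2BC5 (chromosome 6, 26158122 to 26171349), an H2B gene whose mRNA can be polyadenylated, measured 4.68, 6.82 and 7.52 FPKM with YQSHJD and 1.98, 2.189 and 2.69 FPKM with saline. All YQSHJD libraries lay above all saline libraries, with a rise of 2.77-fold, or 1.14 on the log2 scale with a standard error of 0.16 (adjusted p = 0.00093). H2AC8 (chromosome 6, 26216921 to 26217437), an H2A gene, measured 2.25, 2.59 and 1.39 FPKM with YQSHJD and 0.508, 1.01 and 0.354 FPKM with saline. It rose by 0.92 with a standard error of 0.19 (adjusted p = 0.0064) and by 1.65 with a pseudocount of 0.1 in place of 1 and 1.71 with limma-voom on reads, and it rests on few reads near the filter. H2AC6 (chromosome 6, 26124145 to 26139116), the clustered H2A gene with the highest FPKM in both groups, measured 25.2, 28.95 and 26.2 FPKM with YQSHJD and 18.02, 17.8 and 21.2 FPKM with saline. It rose by 0.48 with a standard error of 0.10 (adjusted p = 0.0069). That call was lost under TPM rescaling, at 0.13 (adjusted p = 0.398), and after GC correction, at 0.28 (adjusted p = 0.0594).

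The other 7 tested core genes were not called. H2BC21 measured 2.65, 3.43 and 2.49 FPKM with YQSHJD and 2.10, 2.10 and 2.06 FPKM with saline, and the groups did not overlap. Its difference of 0.31 missed the threshold (adjusted p = 0.054, 95% interval from 0.05 to 0.57) and passed it without YQSHJD 1 and without YQSHJD 3. It was 0.21 without YQSHJD 2 (adjusted p = 0.181) and 0.057 under TPM rescaling (adjusted p = 0.675). H3C10, the tested H3 gene of the clusters, measured 16.9, 13.6 and 15.4 FPKM with YQSHJD and 13.2, 12.4 and 14.0 FPKM with saline, with overlap between the groups and a difference of 0.20. H2BC12 measured 20.0, 28.5 and 25.3 FPKM with YQSHJD and 22.0, 22.2 and 37.4 FPKM with saline, a difference of -0.11. Saline 3 was the highest library for H2BC12, and it was also far above the others for RN7SL1, an RNA without a poly(A) tail, at 78.0 FPKM. The same library was the lowest for H2AC13, at 3.08 FPKM, and for H2AC8, at 0.354 FPKM. A link between these levels was not tested.

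The remaining differences were 0.55 for H2AC13, 0.22 for H2BC4, 0.03 for H2BC17 and -0.21 for H4C12, each with values that overlapped between the groups. For H2AC13 the difference was 0.26 without YQSHJD 3, its highest library, and 0.25 under TPM rescaling. Reads of some of these genes cannot be assigned with certainty, since all 31-base stretches of H4C12, 86.3% of those of H2BC12 and 63.8% of those of H2AC13 occur in other histone genes as well. H2BC4, H3C10 and H2BC17 turned to the other side of 0 under TPM rescaling, and H2BC12 and H4C12 after GC correction. The median difference of the 11 replication-dependent genes was 0.31, against 0.04 for all tested genes, and 0.06 against -0.26 under TPM rescaling. The median of the 10 variants was -0.55, and -0.88 under TPM rescaling. The YQSHJD and saline values were without overlap in 13 of the 21 histone genes, and in 55.3% of all tested genes. Those 13 were 5 replication-dependent genes, all higher with YQSHJD, and 8 variants, all lower.

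Of the 8 genes with at least 30 reads that stayed under the filter, 7 were replication-dependent. H2BC15, an H2B gene with an annotated length far beyond its coding part, had 43, 63 and 36 reads with YQSHJD and 44, 31 and 47 reads with saline. H3C6 had 14, 27 and 10 reads with YQSHJD and 11, 23 and 18 reads with saline. H4C8 had 54, 18 and 10 reads with YQSHJD and 9, 9 and 8 reads with saline, so its difference came mainly from YQSHJD 1. H2AC15, H2AC20, H2BC13 and H4C16 held at most 12 reads in any library.

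Summed over all 68 replication-dependent genes, the level was 146.4, 145.5 and 148.0 FPKM with YQSHJD and 84.3, 84.2 and 101.2 FPKM with saline, a ratio of means of 1.63. Without H1-2 the sums were 94.98, 102.5 and 103.0 FPKM with YQSHJD and 77.6, 74.3 and 93.6 FPKM with saline, a ratio of 1.22. Under TPM rescaling the ratio was 1.27 with H1-2 and 0.953 without it. The sum without H1-2 therefore lay on either side of 1 by the scaling used. All 27 variants together gave 422.9, 448.4 and 448.5 FPKM with YQSHJD and 686.7, 656.2 and 663.9 FPKM with saline, a ratio of 0.658 that became 0.513 under TPM rescaling. In every library most histone reads belonged to the variants, and all 95 genes together held 21280 to 24358 reads with YQSHJD and 35753 to 38929 reads with saline.

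Levels were also read for 24 RNAs of other kinds without a poly(A) tail. How reads were counted is not given, so a level of 0 need not come from poly(A) selection. Of these 24 RNAs, 15 were listed at 0 in all 6 libraries and 20 held at most 3 reads in every library. Their summed level was 45.2, 31.2 and 41.5 FPKM with YQSHJD and 27.2, 21.2 and 84.7 FPKM with saline, most of it RN7SL1, the RNA of the signal recognition particle. Of these, 2 passed the filter and were tested, with differences of 0.011 for RN7SL1 and 0.32 for the other that did not pass. Without saline 3, 1 of them passed as higher and the median of both was 0.56, against 0.17 with it, and 1 passed as higher under the replicate block with GC correction. The level of histone mRNA that ends at the stem-loop was not measured apart, since poly(A) selection is made to leave such RNA out. Reads were not split by transcript end, so some reads of tested genes such as H1-2, H2AC8 and H2AC13 may come from such mRNA. Whether the share of polyadenylated histone mRNA differed between the groups was not tested.

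The genes that make and process histone mRNA held 5 higher and 2 lower of 19 tested, with a median difference of 0.12, and under TPM rescaling 1 higher and 8 lower. The 36.8% of them called lay near the 41.4% of all tested genes. SLBP, which binds the stem-loop, measured 41.6, 45.2 and 40.7 FPKM with YQSHJD and 40.5, 44.5 and 44.8 FPKM with saline, a difference of -0.02 (adjusted p = 0.845). NPAT, the coactivator of the histone clusters, averaged 1.74 ± 0.43 FPKM with YQSHJD and 1.45 ± 0.15 FPKM with saline (SD, n = 3 each), a difference of 0.15 that did not pass (adjusted p = 0.406). TUT7, a terminal uridylyltransferase that marks histone mRNA for decay, rose 2.10-fold. NCBP1, the large cap-binding subunit, rose 1.53-fold, LSM10, part of the U7 particle that cuts histone pre-mRNA, rose 1.41-fold, and CPSF3, the nuclease that makes that cut, rose 1.59-fold. MIF4GD, which links SLBP to translation, fell 1.66-fold, and the scaffold SYMPK fell 1.42-fold. MIF4GD overlaps MRPS7, so reads of these genes may be shared.

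Histone chaperones, which carry histones to and from DNA, held 2 higher and 9 lower of 20 tested, with a median of -0.25. The 55% of them called stood against 41.4% of all tested genes, of which 23.3% were called higher and 18.0% lower. Under TPM rescaling 2 were higher and 12 lower, where 885 higher and 4375 lower were called among all 10966 tested genes. ASF1A, a chaperone of H3 and H4, measured 24.3, 21.4 and 20.6 FPKM with YQSHJD and 7.28, 8.04 and 8.91 FPKM with saline, with no overlap, and rose by 1.35 (adjusted p = 5.2e-05). Its relative ASF1B was listed at 0 in all 6 libraries. NPM1, nucleophosmin, rose 1.83-fold. CHAF1B, a subunit of the CAF-1 complex that loads H3 and H4 behind the replication fork, measured 3.77, 4.21 and 4.23 FPKM with YQSHJD and 8.31, 8.25 and 8.48 FPKM with saline, and fell by 0.88. CHAF1B overlaps MORC3. MCM2, a helicase subunit that also holds H3 and H4, fell 1.98-fold, TONSL, which reads newly made histones, fell 2.21-fold, and HJURP, which places the centromeric H3 variant, fell 1.95-fold.

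CENPA, that centromeric H3 variant, is not among the 95 genes by its name. It measured 2.94, 3.79 and 3.17 FPKM with YQSHJD and 9.43, 9.27 and 9.11 FPKM with saline, and fell 2.81-fold. CENPA overlaps SLC35F6, so reads of these genes may be shared. CENPA was 1 of 9 genes called lower among 12 tested genes of S phase and proliferation, whose differences all lay below 0 with a median of -0.75. That is 75% of them, where 18.0% of all tested genes were called lower. Under TPM rescaling all 12 were called lower, against 4375 of all 10966 tested genes. TK1, the thymidine kinase of S phase, fell 2.62-fold, RRM2, a subunit of ribonucleotide reductase, fell 2.06-fold, and MKI67, the Ki-67 proliferation marker, fell 2.12-fold. PCNA, the sliding clamp, measured 202.5, 180.4 and 162.4 FPKM with YQSHJD and 174.6, 195.0 and 207.1 FPKM with saline, with overlap. The called S phase genes were thus lower with YQSHJD and the called replication-dependent histone genes higher, and the part of cell division in the histone differences was not tested.

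**Figure D4:**
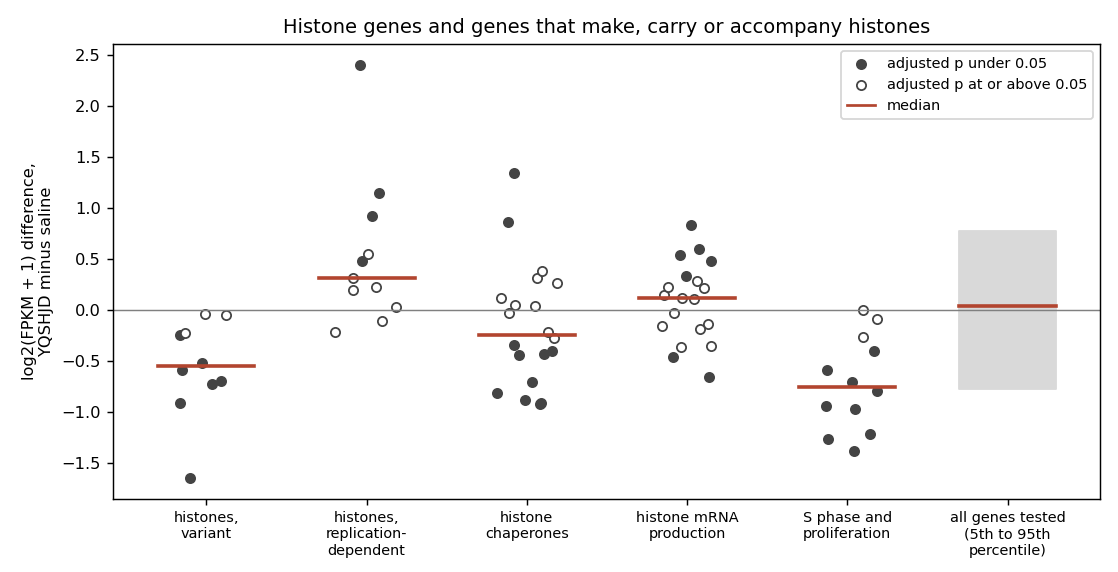
Differences in log2(FPKM + 1), YQSHJD minus saline, of each tested gene in 5 groups, with a bar at the group's median, and beside them the 5th to 95th percentile of all 10966 tested genes. Variant histones (median -0.55) and S phase genes (median -0.75) lie mostly below 0, replication-dependent histones (median 0.31) mostly above it.

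The promoters were compared for 4 short motifs known from histone genes, searched on both strands in the RefSeq windows of GRCh38.p14 from 250 bases before to 50 bases after each start. Of the 68 replication-dependent genes 63 had a window, and of the 27 variants 22. CCAAT, the box bound by NF-Y, was in 53 of the 63 and in 19 of the 22, against 34.6% of all 35116 windows. TATAAA was in 42 of the 63 and in 7 of the 22, against 11.5%. ATTTGCA, the core of the octamer bound by OCT1, was in 14 of 18 replication-dependent H2B windows, against 4.20%. AAACACA, the box known from H1 promoters, was in all 5 replication-dependent H1 windows, against 5.64% of all windows. Matches of different motifs can share bases, and a match is a description of letters and not of a bound site.

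Shown next are the 150 bases before the start of H1-2 and H1-10, which moved in opposite directions, of 2 core genes that rose and of H2AX, which fell. Each is written 5′ to 3′ on the strand of the gene, with the motifs above in capitals.
H1-2 (chr6:26056471-26056620, minus strand): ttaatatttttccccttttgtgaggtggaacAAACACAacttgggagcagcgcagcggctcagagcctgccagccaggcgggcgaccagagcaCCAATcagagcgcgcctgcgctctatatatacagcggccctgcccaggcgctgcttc
H1-10 (chr3:129316287-129316436, minus strand): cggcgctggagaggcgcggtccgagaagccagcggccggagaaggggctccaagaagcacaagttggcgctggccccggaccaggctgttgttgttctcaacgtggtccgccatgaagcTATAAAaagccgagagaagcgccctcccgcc
H2BC5 (chr6:26157971-26158120, plus strand): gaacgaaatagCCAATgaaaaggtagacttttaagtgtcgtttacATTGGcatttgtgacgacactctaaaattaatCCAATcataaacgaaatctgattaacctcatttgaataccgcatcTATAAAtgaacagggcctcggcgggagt
H2AC6 (chr6:26124022-26124171, plus strand): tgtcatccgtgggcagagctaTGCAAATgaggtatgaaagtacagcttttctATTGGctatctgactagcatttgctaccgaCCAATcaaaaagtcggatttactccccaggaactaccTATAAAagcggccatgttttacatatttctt
H2AX (chr11:119095466-119095615, minus strand): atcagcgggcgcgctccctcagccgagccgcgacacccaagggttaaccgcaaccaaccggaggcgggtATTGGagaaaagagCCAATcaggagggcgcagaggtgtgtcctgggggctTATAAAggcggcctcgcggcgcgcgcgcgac

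In H1-2 the H1 box begins 119 bases and the CCAAT box 57 bases before the start. H1-10 has in this stretch the TATA box 31 bases before the start and none of the other motifs. H2BC5, H2AC6 and H2AX each have both a CCAAT box and a TATA box, the last of these 28 bases before the start in H2BC5 and 31 bases before it in H2AC6 and H2AX. ATTGG is the CCAAT box and TGCAAAT the octamer core on the opposite strand. Both boxes were found before H2BC5 and H2AC6, which rose, and before H2AX, which fell. Only the exact TATAAA was searched, so other TATA-like stretches, such as the one in H1-2, were not marked. The part of these motifs in the differences was not tested.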

How the data were processed

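Per the labels' protocols, libraries of polyadenylated RNA were prepared with a TruSeq kit from Illumina, and the submitters' processing notes name CASAVA 2.19. The authors deposited FPKM values for 62709 genes with names, coordinates and lengths. For the aligner, counter, strand setting, genome build and scaling, no method is given in the sources used here. A further 6 columns of the table match no sample of the series and were not used. Coordinates of genes are those of the deposited table.

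Within a library, 100% of the products of FPKM and gene length were whole multiples of a single step (tolerance 0.01 reads), so reads were recovered. They number 13370372 to 15615649 per library, which leaves genes near 1 FPKM imprecise. Genes that reached 1 FPKM in 3 or more of 6 libraries were tested on log2(FPKM + 1), computed here from the deposited FPKM, with limma 3.58.1 in R 4.3.3 (trend and robust prior, two-sided, Benjamini-Hochberg adjustment over all 10966 tested genes). Differences on this scale understate the change of low genes. The deposited gene length joins all exons of a gene and can far exceed any single transcript (17013 bases for MACROH2A1), so FPKM levels of different genes depend on it. Alternatives were a pseudocount of 0.1, no filter, TPM and median-of-ratios rescaling, no trend and robust prior, limma-voom on the recovered reads, the replicate number as a block, a GC correction (loess, span 0.5), both together, and leaving out each library. The sum without H1-2 was added after seeing the data. The test was tried on simulated data. Figures were drawn with matplotlib 3.10.9.

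Stem-loops and transcript ends were searched in GENCODE 29 transcripts and promoters in RefSeq windows of GRCh38.p14. The histone genes, their classes and the gene lists were chosen with earlier results of these data known. Every histone gene that passed the filter is named, as is every other with at least 30 reads in all, except 1 that enters the counts, medians and sums and is not reported here. Of each list the 4 genes with the smallest p in each direction are named, with SLBP, NPAT, CENPA, HJURP and MKI67. PCNA, ASF1B, RN7SL1, PTPRC, COL3A1, TTR, SERPINA1, ACTA2, PDGFRB and overlapping genes were named after their values were seen.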

Additional observations from a re-analysis of the deposited data

How the results depend on the processing

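Of 315 comparisons of a tested histone gene with its value under an alternative, 279 kept direction and call, 11 lost the call and 10 gained it. In 15 the direction turned, all of them in genes that were not called. Under TPM rescaling H3C10 was at -0.14, H2BC4 at -0.025 and H2BC17 at -0.15. H2BC12 was at 0.16 and H4C12 at 0.13 after GC correction, with and without the block. With a library left out, H2BC12 ranged from -0.23 (without saline 1) to 0.13 (without saline 3), H2AJ from -0.13 (without YQSHJD 3) to 0.073 (without YQSHJD 1) and H2BC4 from -0.035 (without saline 2) to 0.53 (without saline 1, where it was called higher). H4C12 ranged from -0.42 (without YQSHJD 3) to 0.060 (without YQSHJD 2) and H2BC17 from -0.22 (without saline 2) to 0.34 (without saline 3). The cause was not tested. The lost calls were those of H2AZ1 in 8 alternatives and H2AC6 in 3, and the other 9 called histone genes kept theirs in all 15.

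Histone genes called higher numbered 3 to 5 and called lower 6 to 9 over the alternatives, and 4 to 5 and 6 to 7 when a library was left out. Under TPM rescaling, and also after GC correction, 3 were higher and 9 lower, with H3-3A and H3-3B added, and median-of-ratios scaling and limma-voom added H3-3B (4 higher and 8 lower). With the replicate number as a block 4 were higher and 6 lower (3707 of all genes called), and 3 higher and 8 lower with GC correction as well. Same-numbered libraries did not deviate together (correlations -0.24, -0.11 and -0.04), so the numbers were not taken to pair the samples. Of all genes 2957 were called without the filter, which tests more genes, and 2805 to 4812 with a library left out, the lowest without saline 1 (1588 higher, 1217 lower). The ratio of the replication-dependent sums was 1.27 under TPM rescaling and 1.22 without H1-2. Depth limits the core genes near 1 FPKM, and 44 histone genes with reads were tested only without the filter, where 4 histone genes were higher and 6 lower.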
